A study of Mus musculus with 21 samples.

Results

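Voltage-gated sodium and calcium channels were followed as a gene family across 3 mouse strains, each lacking a different long intergenic noncoding RNA (lincRNA). The family was taken by gene symbol: Scn followed by a number and the letter a or b, Cacna1, Cacna2d, Cacnb and Cacng. It came to 40 genes of 42760 in the tables of the Peril and Fendrr strains and of 40770 in the table of the linc-Brn1b strain, 14 for sodium channels and 26 for calcium channels. Scn7a was singled out when the family was chosen, because it was lower in Fendrr knockout lung. Its difference there is therefore given as a description.

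RNA was sequenced from whole tissue of wild-type (WT) and homozygous knockout (KO) mice. The Peril strain (linc-Sox2 in the sample labels) gave brain at E18.5, where E stands for the day of embryonic development. The Fendrr strain (linc-Foxf1a in the labels) gave E14.5 lung. From the linc-Brn1b strain came telencephalon, first of E13.5 and then of E15.5 embryos, and the brain of pups at postnatal day 7 (P7). Each of these 10 groups had 2 libraries, except linc-Brn1b KO at E15.5, for which the labels list 3 and the study's text states 2. In every KO the lincRNA was replaced by a lacZ reporter with a neomycin resistance gene between loxP sites. The ES cells were a hybrid line from a C57BL/6N male and a female of a strain other than C57BL/6. The mice were crossed back to C57BL/6J a single time, so all strains were of mixed background. WT animals were littermates.

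The deposited level is 1 value per group, in FPKM (fragments scaled to transcript length and to the total of the library), with the libraries of a group pooled. The values carry no spread between animals and no read depth, and no test was run on them here, so differences are descriptions of these groups. The authors' own test columns were not used. A difference is the log2 ratio of KO over WT after 0.1 FPKM was added to both. It was counted as past 1.5-fold only for genes with a mean of both groups of at least 1 FPKM. The tables of the 3 strains were scaled separately, so differences were computed within a table only. Where lung is set beside brain, in a table of its own, the levels are given side by side and rest on that separate scaling.

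Checks on the groups were as follows. The linc-Brn1b entry was between 0.799 and 2.50 FPKM in WT and listed at 0 in all 3 KO groups. The entry linc-Cox4nb-4, which spans the Fendrr locus, was 38.4 FPKM in WT and 0.0450 FPKM in KO lung. The only entry over the Peril locus, linc-Atp11b-4, went against the label, with 0.0109 FPKM in WT and 4.65 FPKM in the libraries labelled KO. Directions for that strain follow the labels and the column order found in the linc-Brn1b table. Whether its WT and KO groups were exchanged is not known, and its directions would then be reversed. The 7 neuron markers summed to between 1364 and 2940 FPKM in brain and telencephalon groups and to at most 22.1 FPKM in lung. Summed levels of 4 Y-linked genes were between 21.0 and 49.2 FPKM in 1 genotype and at most 0.0357 FPKM in the other in all 5 KO comparisons, higher in KO for Peril, linc-Brn1b E15.5 and P7 and higher in WT for Fendrr and linc-Brn1b E13.5. Genotype and sex of the animals cannot be told apart.

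A voltage-gated sodium channel is built from a large alpha subunit, which forms the pore and senses voltage, and smaller beta subunits that set its gating and placement. It opens when the membrane depolarizes, drives the upstroke of the action potential, and shuts again through an inactivation gate. Calcium channels have a related pore subunit, alpha1, joined by alpha2delta and beta subunits. Cav1 channels couple depolarization to contraction and gene expression, Cav2 channels trigger transmitter release, and Cav3 channels open near the resting potential and support burst firing. Several of the proteins named gamma subunits act mainly as partners of AMPA-type glutamate receptors.

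Scn7a codes for an unusual alpha subunit (Nax), known from glia and as a sodium sensor. It had the largest KO difference of the sodium channel genes with a mean of at least 1 FPKM, but it was singled out for that difference. The coding bases of its inactivation gate are shown because the core of this gate departs from that of the classical alpha subunits. No other region of the alpha subunits was compared. They come from the GENCODE transcript on NCBIM37 (mm9), the build of the tables. Capitals mark the 3 codons at the core of the gate, which is a run of isoleucine, phenylalanine and methionine in classical channels.
Scn7a: ggaggatcaaacATCTTTATAacagtaaaa
Of 10 alpha subunit genes with an annotated coding transcript, Scn2a1 among them, 9 code for the classical core and Scn7a does not. The search required the isoleucine and phenylalanine, so within the core only the methionine position could differ. The stretch lies at chr2:66518993-66519022 on the minus strand, within exon 23 of 25.

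A second stretch separates calcium channel alpha1 subunits by partner. The loop that binds the beta subunit holds a leucine, a glycine, a tyrosine and a tryptophan at fixed distances, and the glycine and tyrosine codons are in capitals for 2 of its carriers.
Cacna1c: ctcaaaGGCTACctggactgg
Cacna1a: ctcaatGGATACatggagtgg
The spacing was found in 4 of 4 Cav1 genes and 3 of 3 Cav2 genes, and in 0 of 3 Cav3 genes, whose channels are known to work without a beta subunit. The Cacna1c stretch is at chr6:118684939-118684959 on the minus strand, in exon 9 of 47, and the Cacna1a stretch at chr8:87060042-87060062 on the plus strand, in exon 8 of 47.

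Levels differed widely among the members. Of the 40 genes, 14 were at or above 1 FPKM in all 10 groups, among them Scn3a, Scn3b, Cacna1c, Cacna1g, Cacna2d1, Cacnb3, Cacng4 and Cacng7. Another 8 were under 1 FPKM everywhere: Scn2a, Scn4a, Scn10a, Scn11a, Cacna1f, Cacna1s, Cacna2d4 and Cacng6. Scn4a and Cacna1s serve skeletal muscle, Scn10a and Scn11a sensory neurons, and Cacna1f the retina. A set of 9 genes was at or above 1 FPKM in all 8 brain and telencephalon groups and under it in both lung groups, which includes all 3 Cav2 genes as well as Scn8a, Scn9a, Cacna2d3, Cacnb4, Cacng2 and Cacng3. Scn7a was the only member with the opposite pattern.

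**Figure D1:**
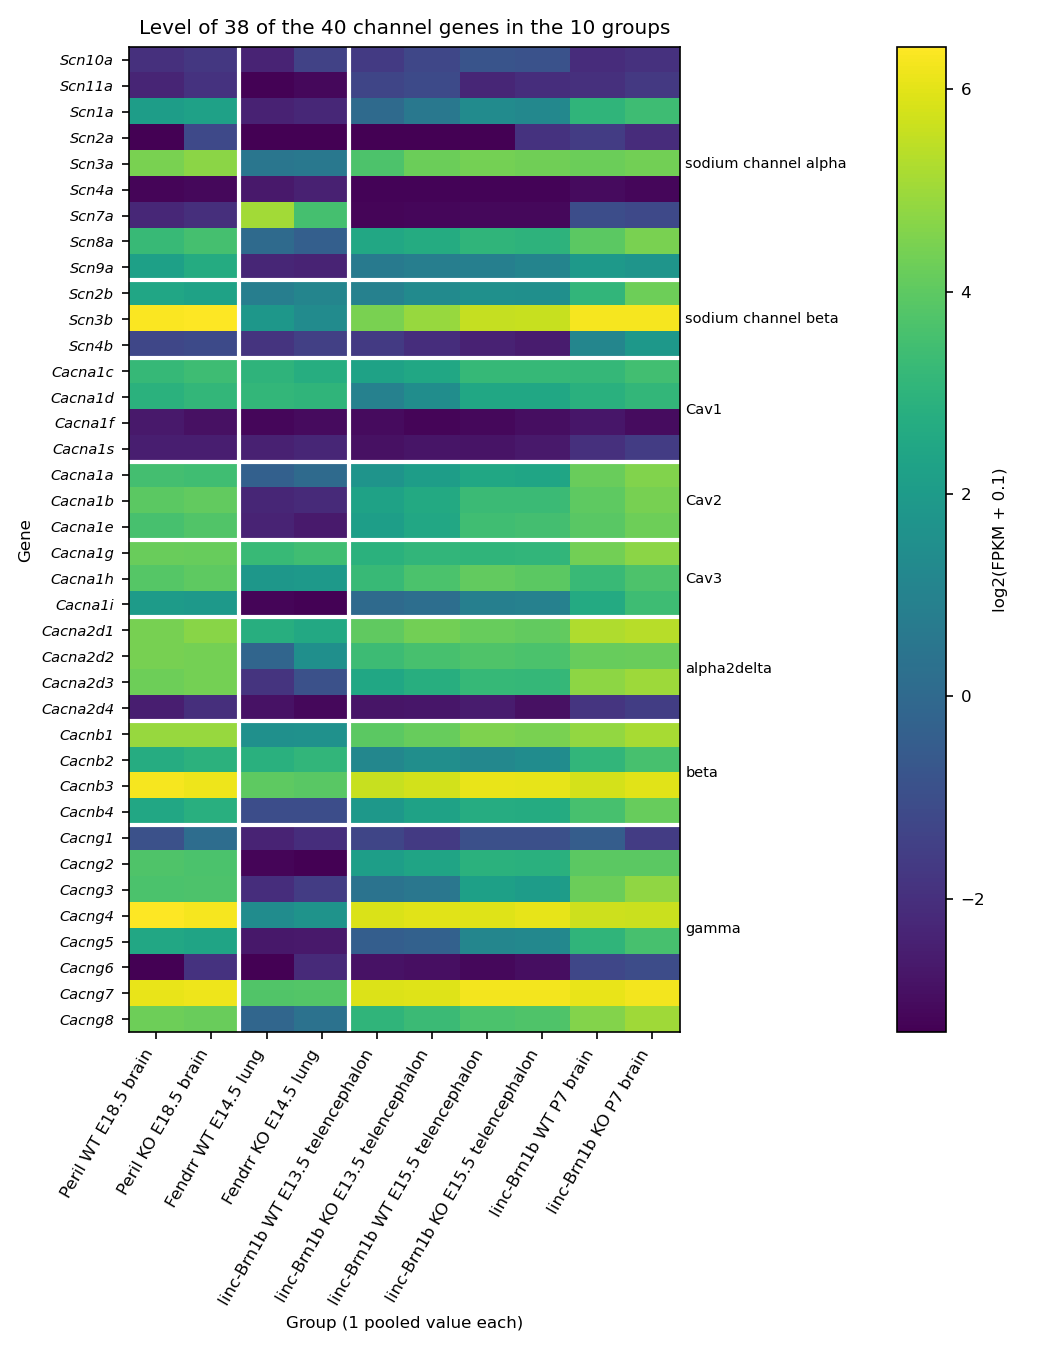
Level of 38 of the 40 channel genes (rows, ordered by role) in the 10 groups (columns, 1 pooled value each), coloured by log2(FPKM + 0.1). White lines separate roles and the 3 tables. Scn7a is bright in lung alone, and Scn3b, Cacnb3, Cacng4 and Cacng7 are bright in all brain and telencephalon groups.

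In E18.5 brain labelled WT of the Peril strain, FPKM values, which are per length and so can be compared between genes, were led by Cacng4 (83.4 FPKM), Scn3b (81.7 FPKM), Cacnb3 (78.3 FPKM) and Cacng7 (68.8 FPKM). Among sodium channel alpha subunits, Scn3a, the main embryonic form in brain, had 22.1 FPKM, followed by Scn8a with 9.36 FPKM and Scn9a with 4.55 FPKM. Nav1.2 is listed in these tables as Scn2a1, outside the family's symbols, and had 22.7 FPKM. The entry Scn2a covers the same span on chromosome 2 and was at 0, so reads could have been split between them and the level of Nav1.2 is uncertain. Scn2b, another sodium channel beta subunit, had 5.39 FPKM.

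Pore subunits of calcium channels were more even. The Cav3 gene Cacna1g was highest at 18.1 FPKM, and of its relatives Cacna1h had 14.4 FPKM and Cacna1i 3.94 FPKM. The Cav2 genes Cacna1b, Cacna1e and Cacna1a were between 11.4 and 15.4 FPKM. A separate entry, alpha1B, shares the listed span of Cacna1b and reached 9.45 FPKM in 1 of the groups, so the level of Cacna1b may be an underestimate. Of the Cav1 genes, Cacna1c had 9.04 FPKM and Cacna1d 7.39 FPKM. Cacna2d1, Cacna2d2 and Cacna2d3 lay between 19.1 and 21.3 FPKM, Cacnb1 at 30.1 FPKM, Cacnb2 at 6.44 FPKM and Cacng8 at 19.1 FPKM. Entries spelled cacna1d and CacnB2 share the spans of Cacna1d and Cacnb2 in every strain and were not counted as members. The levels of Cacna1d and Cacnb2 are therefore uncertain in all groups.

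The comparison of brain labelled Peril KO with WT asks whether loss of the lincRNA moves gene expression in late embryonic brain. No channel gene of the 29 at or above the minimum was past 1.5-fold in the libraries labelled KO, whereas 1.95% of all 14405 genes were higher and 1.40% lower. The members' median log2 ratio was 0.13, against 0.00 for all genes. Of the 29, 19 were above 0, against 50.8% of all genes. The sodium channel alpha genes were all on the higher side, 5 of 5, with log2 ratios from 0.14 to 0.45. The largest was Scn9a, with 4.55 FPKM in WT and 6.24 FPKM in the libraries labelled KO. Gamma genes went the other way in 4 of 6 cases, by at most 0.15 on the log2 scale. Of 31 other genes of the channel pathway (fibroblast growth factor homologues, ankyrins, calmodulins, channel regulators and intracellular release channels), 27 reached the minimum and 0 were past 1.5-fold.

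**Figure D2:**
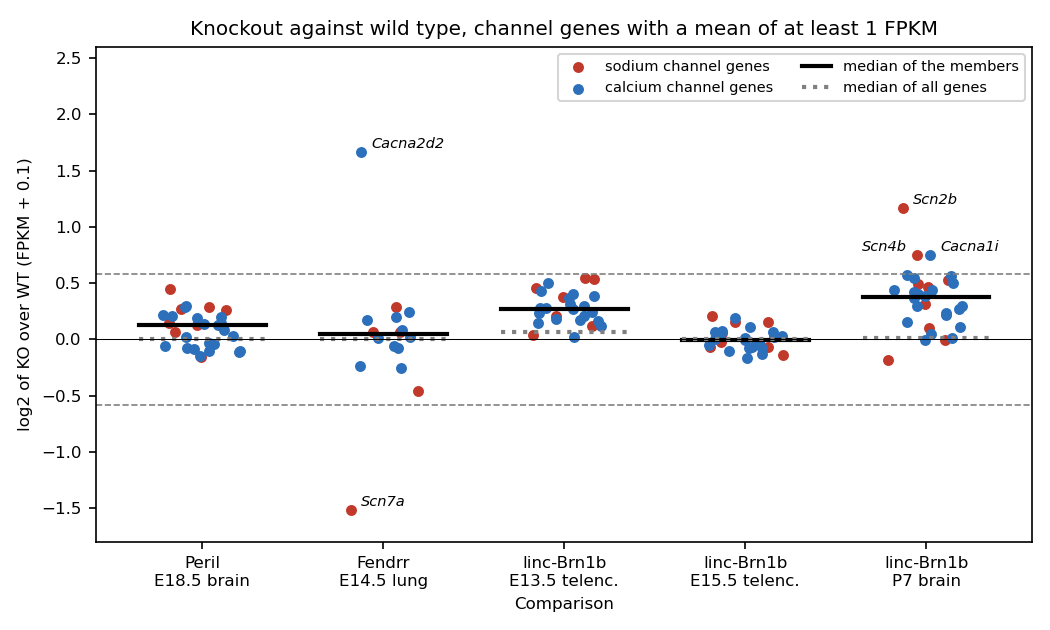
log2 ratio of KO over WT, with groups as labelled, for each channel gene with a mean of at least 1 FPKM in the 5 KO comparisons. Points are genes, the solid bar is their median, the dotted bar the median of all genes, and dashed lines mark 1.5-fold. Labelled genes are those past 1.5-fold, 2 in Fendrr lung and 3 in linc-Brn1b P7 brain.

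In the developing lung, fewer channel genes were expressed. Past 1.5-fold there were Scn7a, singled out for its difference in this lung, and Cacna2d2, which reached the minimum only through the KO group. Scn7a was the highest of the 40 in WT lung and was lower in KO, while Cacna2d2, an alpha2delta subunit that raises channel number at the membrane, was higher. The remaining 14 of the 16 members at or above the minimum were within 1.5-fold. Among all 13979 genes, 2.16% were higher and 1.66% lower.

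Scn7a had 33.7 FPKM in WT and 11.7 FPKM in KO lung, a log2 ratio of -1.52 or 2.87-fold lower. Its place among the members went from first in WT, ahead of Cacnb3 with 16.1 FPKM, to the third in KO, behind Cacnb3 (15.3 FPKM) and Cacng7 (13.8 FPKM). Of the 13979 genes, 37 had a lower log2 ratio. Scn7a was singled out for this difference, so its rank is a description and no support for it. In brain and telencephalon Scn7a stayed between 0.00917 and 0.395 FPKM.

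The gene lies at chr2:66511483-66622967 in the table, with no other entry overlapping it, at one end of the sodium channel cluster. Of 16 entries that start within 1 Mb, 2 were at or above 1 FPKM, Galnt3 and Ttc21b. Neither was past 1.5-fold, with log2 ratios of -0.19 and 0.29. Its neighbours Scn9a (0.107 and 0.0954 FPKM in WT and KO) and Scn1a (0.0915 and 0.113 FPKM) were barely detected, and Scn3a, farther along the cluster, had 1.33 and 1.39 FPKM. The difference was seen at Scn7a and not at Galnt3, Ttc21b or Scn3a, of which Scn3a was just above the minimum. Scn9a and Scn1a were too low to show one.

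Cell types that could carry Scn7a were read from their markers, since fewer cells of a type and less RNA per cell cannot be told apart in whole tissue. Of the 6 Schwann cell and neural crest glia markers, 3 were higher and 3 lower in KO, and their sum went from 25.03 to 20.88 FPKM. Sox10, a defining factor of these cells, had 0.861 FPKM in WT and 0.882 FPKM in KO, and Erbb3 had 12.2 and 10.8 FPKM. Fabp7 alone was past 1.5-fold, with 8.88 and 5.78 FPKM. All 5 endothelial markers were lower, none past 1.5-fold, with sums of 269.8 and 219.7 FPKM. Smooth muscle markers gave sums of 358.3 and 340.4 FPKM, most of it from Acta2 (250.2 and 241.6 FPKM). Myh11, the smooth muscle myosin, was the only one past 1.5-fold, lower with 28.4 and 17.4 FPKM. Within 1.5-fold, Acta2 and Lmod1 were lower and Tagln and Cnn1 were higher, so the markers did not share a direction. Lung mesenchyme markers, 5 in number, summed to 251.7 and 245.2 FPKM and none was past 1.5-fold. Lung epithelium markers, 6 in number, summed to 1038 and 1060 FPKM, again with none past 1.5-fold. Sftpc made up most of that sum (819 and 871 FPKM), and 4 of the 6, Nkx2-1, Epcam, Cdh1 and Sox2, were lower in KO. Peripheral neuron markers summed to 3.15 and 5.25 FPKM and were higher for 5 of 6, with Prph past 1.5-fold (1.22 and 2.10 FPKM). The part of any of these cell types in the Scn7a difference was not tested.

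Cacna2d2 had 0.814 FPKM in WT and 2.80 FPKM in KO lung, a log2 ratio of 1.67. It reached the minimum only through the KO group, so it had to differ to be counted. The other alpha2delta genes did not share this direction as a set. Cacna2d1 had 6.83 FPKM in WT and 5.72 FPKM in KO, and Cacna2d3 had 0.178 and 0.435 FPKM.

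Cardiac muscle markers moved with this gene. All 9 were higher in KO lung, 8 of them past 1.5-fold, and their sum went from 310.2 to 958.3 FPKM. Nppa, an atrial peptide, had 1.77 FPKM in WT and 54.2 FPKM in KO, and Myl7, an atrial myosin light chain, 147 and 422 FPKM. Skeletal muscle markers were higher for 8 of 9, with 5 past 1.5-fold, sums of 41.7 and 73.2 FPKM, and 1 at 0 in both groups. Calcium channel pores known from heart and skeletal muscle were within 1.5-fold or under the minimum, Cacna1c with 7.89 and 6.69 FPKM and Cacna1s with 0.0836 and 0.104 FPKM. Scn4a, the sodium channel of skeletal muscle, had 0.0567 and 0.0882 FPKM. Cacnb2, the main beta subunit of heart, had 7.21 and 8.31 FPKM. The part of heart tissue in the Cacna2d2 difference was not tested.

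**Figure D3:**
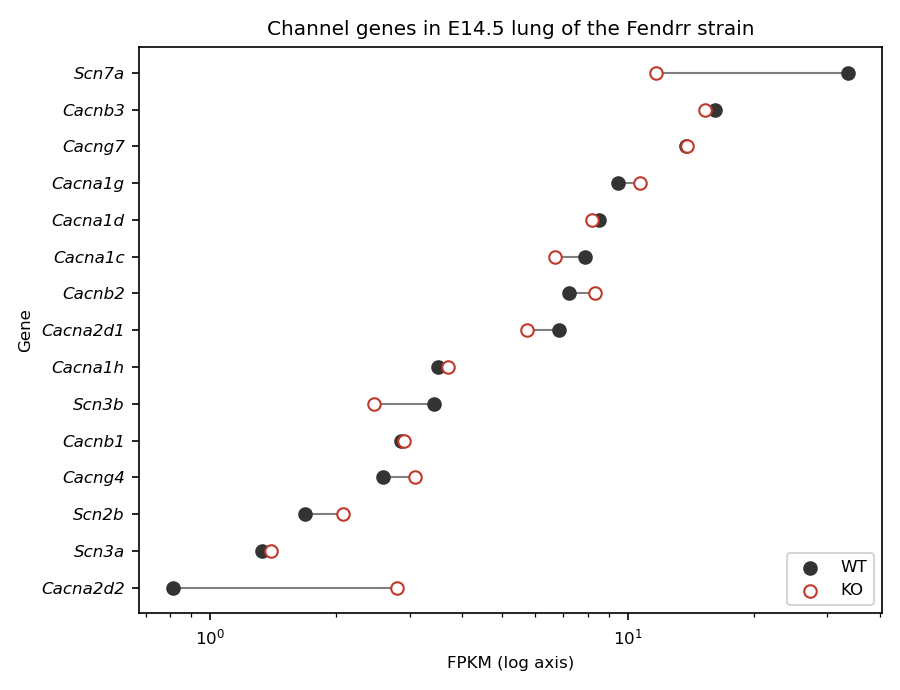
FPKM in WT (filled) and KO (open) E14.5 lung of the Fendrr strain for 15 of the 16 channel genes with a mean of at least 1 FPKM, on a log axis, ordered by WT level. Scn7a at the top moves left from 33.7 to 11.7 FPKM and Cacna2d2 at the bottom moves right from 0.814 to 2.80 FPKM. The other genes lie close to their WT value.

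After Scn7a, Cacnb3 and Cacng7, the next most abundant channel genes in WT lung were pore subunits of Cav3 and Cav1 type. Cacna1g had 9.48 FPKM in WT and 10.7 FPKM in KO, Cacna1d had 8.54 and 8.21 FPKM, and Cacna1h had 3.498 and 3.709 FPKM. No Cav2 gene reached the minimum. Of sodium channel beta subunits, Scn3b had 3.43 and 2.47 FPKM and Scn2b 1.68 and 2.08 FPKM. Scn3b, at 1.37-fold, was the member nearest to the threshold from inside. Within the pathway list, 18 of 31 genes reached the minimum and 3 were higher past 1.5-fold, with 0 lower. These were Rrad, an inhibitor of Cav channels known from heart and muscle (3.33 and 6.38 FPKM), Ryr2, the cardiac release channel (0.765 and 1.503 FPKM), and Fgf12, a partner of sodium channels (0.676 and 1.49 FPKM). Ryr2 and Fgf12 reached the minimum through the KO group.

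The linc-Brn1b strain, which the study used to follow cortical development, shows how channel genes change with age and whether the KO departs from that course. The age course is given first. From E13.5 to E15.5, within telencephalon, 18 of 29 members were past 1.5-fold higher in WT and 1 was lower, against 11.8% and 10.3% of all genes. In KO, 10 of 29 were higher and 1 lower, against 12.8% and 10.4%. Counting only members at or above 1 FPKM at both ages, 14 of 25 were higher in WT and 8 of 27 in KO, with 1 lower in each. In both genotypes together 10 members were higher and 1 lower, where 6.08% and 6.82% of all genes were. The Y-linked sum went from 49.2 to 0.00662 FPKM in WT and from 0.0133 to 21.0 FPKM in KO over this interval, so age and sex cannot be told apart here, nor can genotype and sex in the unequal WT and KO counts.

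Among the higher ones were Cacng3, Cacng5, Cacna1d, Cacna1e, Scn1a, Cacna1b, Scn3b, Cacna1c and Cacna1i. Cacng3, an AMPA receptor partner, had 1.201 FPKM at E13.5 and 4.56 FPKM at E15.5 in WT, and 1.34 and 4.06 FPKM in KO. Cacng5 had 0.646 and 2.13 FPKM in WT, and 0.718 and 2.22 FPKM in KO. It was under 1 FPKM at E13.5 and passed the minimum through E15.5. Among pore subunits, Cacna1d had 1.83 and 5.50 FPKM in WT, and 2.63 and 5.53 FPKM in KO. Cacna1e, the R-type channel, had 4.32 and 10.7 FPKM in WT, and 5.62 and 11.2 FPKM in KO.

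Scn1a, a channel of mature inhibitory neurons, had 0.919 FPKM in the youngest telencephalon of WT and 2.48 FPKM at E15.5, and in KO 1.38 and 2.25 FPKM. The most abundant members differed less. Cacng7 had 60.4 and 76.2 FPKM and Cacng4 58.7 and 61.6 FPKM in WT. Cacnb3 had 48.6 and 69.1 FPKM.

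Over the same interval in WT, the 6 progenitor markers were all lower at E15.5, 5 past 1.5-fold, and their sum went from 492.7 to 255.8 FPKM. The 7 neuron markers were all higher, 3 past 1.5-fold, with sums of 1422 and 2084 FPKM. In KO the same progenitor markers were lower for 6 of 6 (499.6 and 261.5 FPKM in sum) and neuron markers higher for 6 of 7 (1364 and 2098 FPKM). The part of a changing cell mix in the channel genes' levels was not tested. Of the pathway list, 14 of 27 genes above the minimum were higher in WT and 9 of 27 in KO, and 0 were lower. Among them were Rims1 and Rimbp2, which tether Cav2 channels at the presynaptic release site, with 3.55 and 8.17 FPKM and 1.85 and 5.39 FPKM in WT.

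Between E15.5 telencephalon and P7 whole brain, age and dissected region cannot be told apart. At P7, 19 of 30 members were higher and 1 lower in WT, against 25.9% and 30.3% of all genes. In KO, 23 of 30 were higher and 0 lower, against 26.8% and 30.5%. Of the members at or above 1 FPKM in each group, 18 of 29 were higher in WT and 22 of 29 in KO. The median of all genes was shifted by -0.11 on the log2 scale in both genotypes. Relative to that shift, 20 members were higher and 1 lower in WT, and 24 higher in KO. The same 19 members were higher in both genotypes, and 0 of the 30 were lower in both, where 23.0% of all genes were higher in both and 26.3% lower.

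Sodium channel beta genes were among those with the largest differences. Scn4b had 0.0933 FPKM in E15.5 telencephalon and 2.09 FPKM in P7 brain of WT, and 0.0653 and 3.59 FPKM in KO, and was counted only through P7. Scn2b had 2.86 and 8.47 FPKM in WT, and 2.80 and 19.2 FPKM in KO. Scn3b, already abundant, had 46.6 and 77.3 FPKM in WT and 48.5 and 77.1 FPKM in KO. These genes were past 1.5-fold in both genotypes.

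Of the 6 gamma genes at or above the minimum, 4 were past 1.5-fold higher in both genotypes: Cacng2, Cacng3, Cacng5 and Cacng8. Cacng3 had 4.56 and 18.8 FPKM in WT, and 4.06 and 28.1 FPKM in KO, while Cacng5 had 2.13 and 8.18 FPKM in WT, and 2.22 and 12.003 FPKM in KO. Their abundant relatives Cacng4 and Cacng7 did not join them, with 61.6 and 50.4 FPKM and 76.2 and 68.6 FPKM in WT.

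Alpha subunits divided by type. Scn1a had 2.48 and 8.25 FPKM in WT, Scn8a, the main channel of mature nodes and initial segments, 8.15 and 15.6 FPKM, and the embryonic Scn3a 20.8 and 18.9 FPKM. Scn2a1 had 8.22 and 44.3 FPKM. In E15.5 telencephalon Scn3a was thus the most abundant alpha entry, and in P7 brain Scn2a1 was. The Scn1a and Scn9a entries of this strain share a single merged span. For the Peril and Fendrr strains their spans are separate, chr2:66108839-66278894 and chr2:66318138-66473009. Whether any reads were shared between them is not known. Among Cav pores, Cacna1a, the main channel of central synapses, had 5.54 and 17.99 FPKM and Cacna1b, used more in early synapses, 9.82 and 15.9 FPKM. Cacna1h was the only member past 1.5-fold lower in WT, with 16.8 and 9.59 FPKM, and in KO it had 15.3 and 12.99 FPKM. The other Cav3 genes had the opposite direction, Cacna1g with 8.27 and 20.3 FPKM and Cacna1i with 1.73 and 6.08 FPKM in WT.

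Auxiliary calcium channel subunits were also mostly higher at P7. In WT, Cacna2d3 had 9.14 FPKM in E15.5 telencephalon and 26.9 FPKM in P7 brain, and Cacna2d1, the target of gabapentin-type drugs, 17.8 and 38.01 FPKM. Cacnb2 had 2.21 and 8.33 FPKM and Cacnb4, the beta subunit best known from cerebellum, 6.37 and 11.9 FPKM. Those 4 were past 1.5-fold in both genotypes. Cacnb3, which led the beta subunits at every age, had 69.1 and 54.6 FPKM in WT and 66.0 and 63.4 FPKM in KO.

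**Figure D4:**
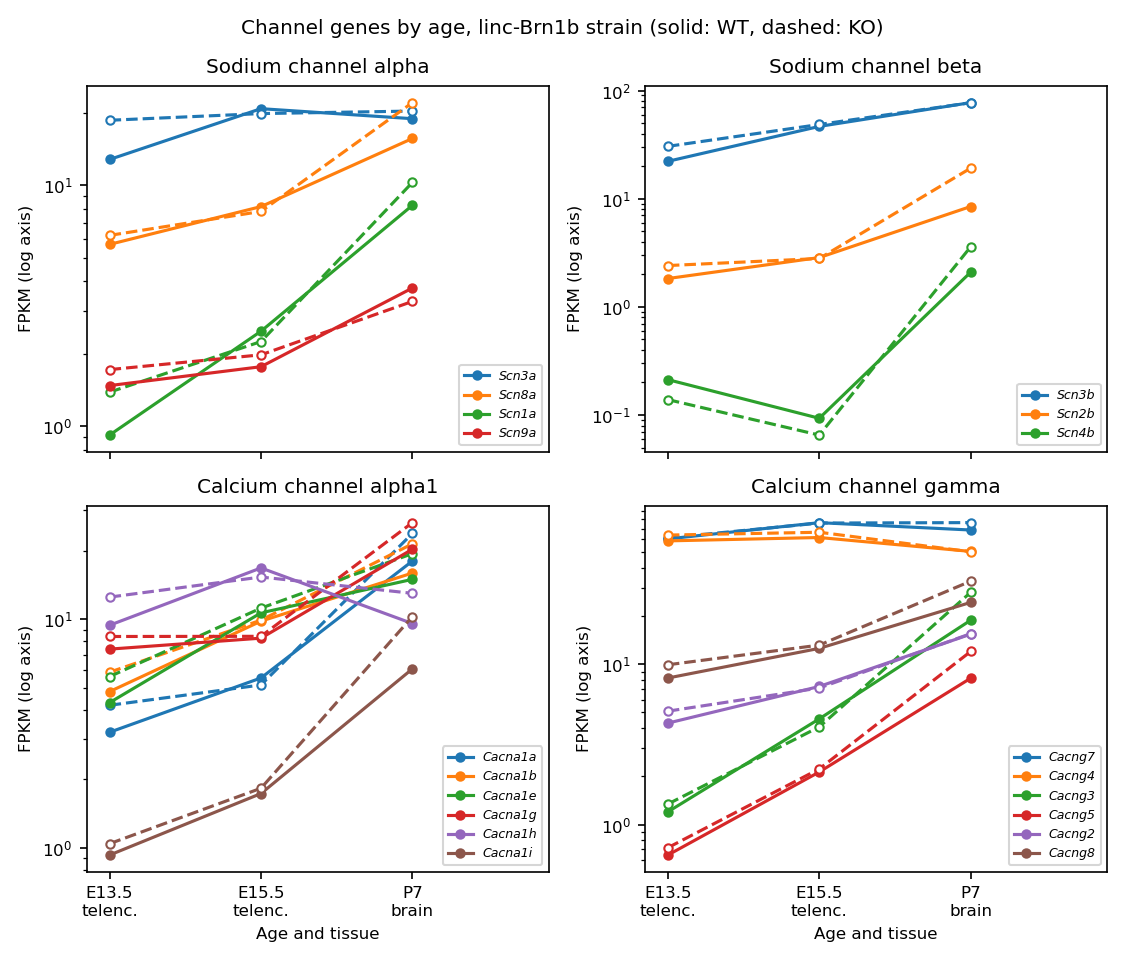
FPKM (log axis) of named channel genes in the linc-Brn1b strain at 3 ages, the first 2 being telencephalon and the last whole brain, in 4 panels by role. Solid lines with filled points are WT and dashed lines with open points KO, 1 pooled value each. Scn4b has the steepest line to P7 among the genes drawn, and KO points at P7 lie above WT for most of them.

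In the KO comparisons of this strain, channel genes sat above 0 at E13.5 and P7 and around 0 at E15.5. At E13.5, 0 of 26 members were past 1.5-fold, where 3.18% of all genes were higher and 6.86% lower. All 26 were nevertheless above 0, with a median log2 ratio of 0.27 against 0.06 for all 13507 genes, of which 58.9% were above 0. Scn1a had 0.919 FPKM in WT and 1.38 FPKM in KO, just inside the threshold at 1.46-fold, and reached the minimum through the KO group. Scn3a had 12.8 and 18.6 FPKM, Cacna1d 1.83 and 2.63 FPKM, and Scn3b 22.1 and 30.5 FPKM. Every role had its members on this side, from gamma genes (median 0.15) to sodium channel beta genes (median 0.42).

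At E13.5 the KO difference of all genes also varied with transcript length. When all genes with an annotated length were split into 4 equal length classes by their longest mRNA, the median log2 ratio at E13.5 went from -0.23 in the shortest class through 0.01 and 0.11 to 0.17 in the longest. Channel mRNAs are long, and 16 of the 26 members fell into the longest class. Within the other 4 KO comparisons the class medians lay between -0.04 and 0.08. Centred within length classes, a step chosen after the data were seen, the members' median at E13.5 was 0.17 and 24 of 26 were above 0. The E13.5 KO group is also the reference of the KO age comparison above, where the class medians went from 0.26 in the shortest to -0.19 in the longest, against 0.00 and 0.00 in WT. The part of transcript length in the E13.5 shift of the channel genes, and in the smaller count of the KO age comparison, was not tested.

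**Figure D5:**
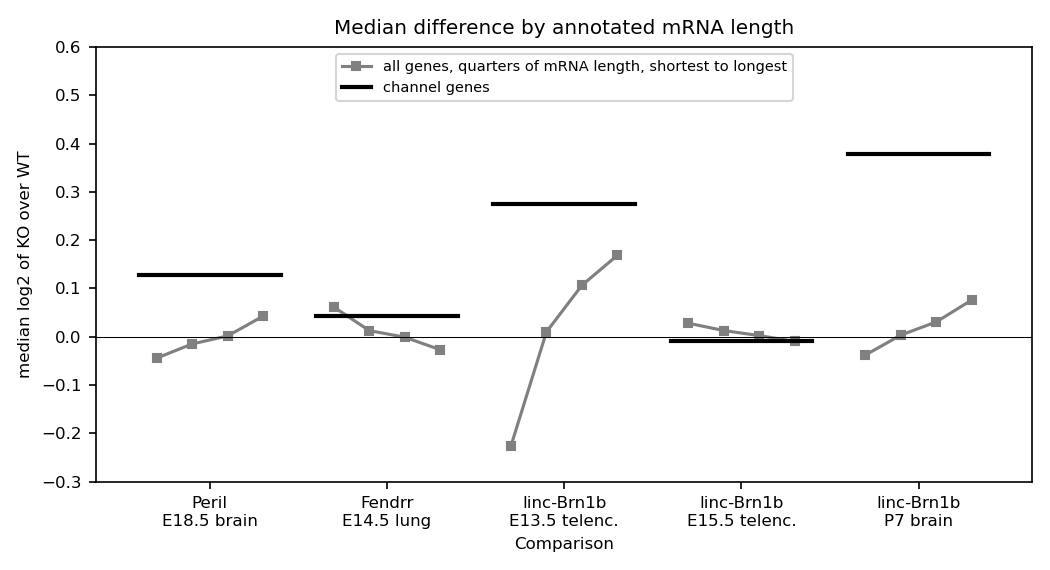
Median log2 ratio of KO over WT of all genes in 4 classes of annotated mRNA length (grey squares, shortest to longest from left to right) and of the channel genes (black bars) in the 5 KO comparisons. The grey line is steep at E13.5, from -0.23 to 0.17, and shallow elsewhere. With the Peril groups taken as labelled, the black bars at Peril, E13.5 and P7 lie above all grey squares of their comparison.

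Neuron markers at E13.5 were higher in KO for 6 of 7, none past 1.5-fold. Tubb3, an abundant short transcript, was the exception, with 869 FPKM in WT and 678 FPKM in KO. Elavl4 had 55.6 and 75.6 FPKM. Progenitor markers were higher for 3 of 6, with sums of 492.7 and 499.6 FPKM. The pathway list had 1 of 25 genes past 1.5-fold, Ryr3, a release channel of the endoplasmic reticulum, with 0.973 and 1.78 FPKM, which reached the minimum through the KO group.

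At E15.5 no member was past 1.5-fold, 0 of 29, where 0.303% of all genes were higher and 0.444% lower. The members' median was -0.01 and 14 of 29 were above 0, against 53.5% of all genes. Their log2 ratios ran from -0.16 for Cacng3 (4.56 FPKM in WT and 4.06 FPKM in KO) to 0.20. Scn3b had 46.6 and 48.5 FPKM, Cacnb3 69.1 and 66.0 FPKM, and Cacng7 76.2 and 75.8 FPKM. The pathway list had 0 of 28 genes past 1.5-fold.

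At P7, channel genes were on balance higher in KO brain. The 3 past 1.5-fold, of 30, were Scn2b, Scn4b and Cacna1i, and 0 were lower, where 3.43% of all genes were higher and 3.96% lower. The members' median log2 ratio was 0.38 against 0.01 for all 14175 genes. Of the 30, 27 were above 0, against 52.2% of all genes. Summed over the 40 members, the level was 646.0 FPKM in WT and 776.6 FPKM in KO.

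Scn2b, a beta subunit that is linked to the alpha subunit by a disulfide bond, had 8.47 FPKM in WT and 19.2 FPKM in KO, a log2 ratio of 1.17. Scn4b, which is linked in the same way and shapes resurgent current, had 2.09 and 3.59 FPKM and a log2 ratio of 0.75. The genes lie next to each other on chromosome 9, at chr9:44918068-44943689 and chr9:44947125-44962144. Cacna1i, a Cav3 channel of thalamic neurons, had 6.08 and 10.3 FPKM and also 0.75. Just inside the threshold were Cacng3 (18.8 and 28.1 FPKM, 1.49-fold), Cacnb4 (11.9 and 17.5 FPKM) and Cacng5 (8.18 and 12.003 FPKM). The 3 members below 0 were Scn9a, with 3.75 and 3.29 FPKM and a log2 ratio of -0.18, and Scn3b and Cacng4, which were level with WT.

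Pore subunits of the synapse were among the higher ones. Cacna1a had 17.99 and 23.8 FPKM, Cacna1b 15.9 and 21.4 FPKM, and Cacna1e 14.96 and 19.38 FPKM. Scn8a had 15.6 and 22.01 FPKM. In the pathway list 1 of 27 genes was past 1.5-fold, Spnb4, the spectrin that anchors sodium channels at nodes and initial segments, with 9.78 and 17.1 FPKM.

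Markers of brain regions and glia moved with the P7 comparison. All 9 cerebellum and hindbrain markers were lower in KO, 6 of them past 1.5-fold, and their sum went from 102.3 to 42.5 FPKM. Pcp2, a Purkinje cell gene, had 14.7 FPKM in WT and 1.48 FPKM in KO, and Hoxb3, which marks hindbrain and spinal cord, had 1.54 and 0.0221 FPKM. Of the oligodendrocyte markers, 3 of 5 were lower past 1.5-fold, Mbp with 292 and 161 FPKM, while Olig1 (51.8 and 64.7 FPKM) and Olig2 (11.2 and 16.1 FPKM) were higher within 1.5-fold. Astrocyte markers were lower for 4 of 4, with 1 past 1.5-fold and sums of 369.5 and 283.1 FPKM. Neuron markers were higher for 4 of 7, with sums of 2940 and 2862 FPKM, Snap25 with 262 and 348 FPKM. The part of the brain regions and cell types sampled in the higher channel levels was not tested.

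Reads of some members may not be assigned with certainty. Of the 40, 19 shared their listed span with another entry in the Peril and Fendrr tables and 21 in the linc-Brn1b table. Listed spans can be those of merged entries, so a shared span does not show that the transcripts themselves overlap. An antisense lincRNA entry shared the span of 11 of them in the first and 9 in the second. The preparation kit is named without a strand setting. Where such an entry does overlap a gene, sense and antisense reads cannot be told apart. For Scn7a, Scn4b and Cacna1i no entry overlapped. The entry mKIAA0558, on the span of Cacna2d2, was listed at 0 in both lung groups. Gm10684, on the span of Scn2b, was at most 0.00681 FPKM.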

How the data were processed

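Whole-tissue RNA libraries were prepared with a TruSeq kit and sequenced as paired-end reads of 101 bp. The authors mapped reads to mm9 (TopHat2), built transcripts (Cufflinks, version 2.0.2 in the submitters' processing notes) and compared groups (Cuffdiff2). The deposited FPKM values are 1 per group, so read depth and the spread between libraries are unknown and no interval or test was computed. The deposited columns of fold changes, test statistics, p-values and q-values of the authors' comparisons were not used. In the 6 linc-Brn1b groups, columns that share a group were identical only when the second-named group was read as the first value. The same order was taken for the other tables, which hold no such repeat.

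The members and lists were chosen with earlier results of these data known. Named genes were all members past 1.5-fold in a KO comparison, the most abundant members of each role, and in age comparisons the largest differences shared by both genotypes. Others named for a near-threshold or contrasting value were chosen after their values were seen, as were the overlapping entries. Listed genes were matched by symbol or a RefSeq synonym, which found Map2 as Mtap2 and Sptbn4 as Spnb4. mRNA lengths are the longest GENCODE transcripts on NCBIM37 and were found for 88.1% to 89.5% of genes. Some members are counted but not reported by name here. Starts are counted from 1. The calling step was run on simulated data with an assumed noise, which cannot show how calls hold against the unknown spread between animals. Python 3.11.15, pandas 2.3.3 and numpy 2.4.6 were used.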

Additional observations from a re-analysis of the deposited data

How the results depend on the processing

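Results were recomputed with a pseudocount of 1 or 0.01 FPKM, no minimum level or a minimum of 3 FPKM, a 2-fold threshold, centring on the median of all genes and, added after the data were seen, centring within 4 classes of mRNA length. The Scn7a ratio kept its direction under every setting tried for it. The other results are counts of both directions together, so a reversal could not show in them. Of 67 alternative values, 53 kept the reported count to within 1.5 times or, for Scn7a, the same value. For Scn7a in lung the log2 ratio of -1.52 was -1.45 with 1 FPKM, -1.53 with 0.01 FPKM and after centring on all genes, and -1.49 after centring by length. Without a minimum, 3 members passed in Peril brain (all with a mean under 1 FPKM), 5 instead of 2 in Fendrr lung and 1 instead of 0 at E15.5 (Scn2a). With a minimum of 3 FPKM, Scn7a remained as 1 member in lung, and the age counts from E13.5 to E15.5 were 12 in WT and 5 in KO, instead of 19 and 11. At 2-fold they were 9 and 4, and 1 member, Scn2b, was left at P7 instead of 3. With 0.01 FPKM, Scn1a passed as 1 member at E13.5. For these changed settings the share of all genes past the threshold is not given here. The counts therefore show how the reported counts move and are no result about the members. No paired analysis was possible because the tables hold 1 value per group, and leaving out replicates could not be run for the same reason. FPKM values without depth do not show how precise low levels are, so those under 1 FPKM carry the least weight.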
